A study of Mus musculus with 8 samples.

Results

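The 10 ETS transcription factor genes described here were the PEA3 group, *Etv1*, *Etv4* and *Etv5*, and 7 further family members known from endothelial cells or from most cell types, *Etv6*, *Erg*, *Fli1*, *Ets1*, *Ets2*, *Elk3* and *Elf2*. They were taken by gene symbol from a table of 53465 genes, and all 10 passed the filter on low counts that left 15388 genes for testing. RNA came from mouse heart ventricles at embryonic day 15.5 (E15.5), with 1 ventricle in each replicate. There were 4 wild-type (WT) libraries and 4 libraries labelled Nrg-1flox;Cdh5-CreERT2, with totals between 16761763 and 24144272 expected counts. In the labelled line, the Cdh5 promoter drives a Cre recombinase in endothelial cells that acts after tamoxifen and is meant to delete floxed *Nrg1* (neuregulin-1, a ligand of ErbB receptor tyrosine kinases). The labels do not say when tamoxifen was given, whether WT embryos received it or carried any allele of the cross, or which exons were floxed.

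*Nrg1* was at 4.87 ± 0.636 CPM (counts relative to a TMM-adjusted library total; SD, n = 4) in the WT libraries and at 6.17 ± 0.611 CPM (SD, n = 4) in the labelled libraries. The log2 fold change was 0.34 (edgeR quasi-likelihood test, Benjamini-Hochberg adjusted p, given below as FDR, 0.311), so the targeted transcript did not fall in the 4 libraries that carry the mutant label, which are called labelled-mutant libraries throughout. Counts were summed over all exons and all cells of a ventricle, so they do not check excision in endothelial cells. RNA of *Xist* and of the Y chromosome were both above 1 CPM in 7 of the 8 libraries, although each replicate is described as 1 ventricle. The summed CPM of *Ddx3y*, *Eif2s3y*, *Kdm5d* and *Uty*, all Y-linked, ran from 69.3 to 171 in the WT libraries and from 42.9 to 120 in the labelled-mutant libraries, with replicate 4 highest in each group. The part of this difference in the results below was not tested except in a fit that held the Y-linked sum as a covariate. That fit is given where it ends a call and for *Etv5*.

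ETS factors share a DNA-binding domain, the ETS domain, that recognises sites around a GGAA core, and they differ in the proteins they bind and in the cells that express them. The PEA3 genes are transcribed in response to receptor tyrosine kinases acting through RAS and ERK. The repressor CIC holds them down until ERK relieves it, and the COP1-DET1 ubiquitin ligase limits the lifetime of their proteins. *Etv1* is known in the heart for its part in fast-conducting cardiomyocytes, those of the atria and of the trabecular and Purkinje lineage. *Erg*, *Fli1* and *Ets1* encode activators of endothelial genes such as *Cdh5* itself, and *Elk3* encodes a ternary complex factor, a partner of SRF that represses until ERK phosphorylates it. *Etv6* encodes a repressor needed in blood and vessel development, whereas *Ets2* and *Elf2* are expressed in most tissues.

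Members of a family can exchange reads where their sequences match over the length of a read, here 60 bases. The part of the *Etv1* coding sequence that best matched *Etv4* and *Etv5* is shown first, with the best match to it in other members. This part is a 90-base stretch, read 5′ to 3′ on the coding strand of GENCODE M21 transcripts (assembly GRCm38). In *Etv1* it lies on the plus strand at chr12:38861362-38865610, in *Etv4* on the minus strand at chr11:101770528-101770995 and in *Etv5* on the minus strand at chr16:22383629-22386783, each time in 2 exons. *Ets1* (plus strand, chr9:32754288-32754377) and *Erg* (minus strand, chr16:95361043-95361132) hold it in 1 exon, and *Elk3* (minus strand, chr10:93265603-93284780) in 2. Capitals mark the bases that differ from *Etv1*.
Etv1: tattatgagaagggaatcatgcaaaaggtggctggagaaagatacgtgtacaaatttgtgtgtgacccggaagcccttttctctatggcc
Etv5: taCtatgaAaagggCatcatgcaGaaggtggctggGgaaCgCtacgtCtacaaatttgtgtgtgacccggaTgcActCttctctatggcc
Etv4: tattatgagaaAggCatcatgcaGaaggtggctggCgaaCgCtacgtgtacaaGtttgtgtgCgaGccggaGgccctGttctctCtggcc
Ets1: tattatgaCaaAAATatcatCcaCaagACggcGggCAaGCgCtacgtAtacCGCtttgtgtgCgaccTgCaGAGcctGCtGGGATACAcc
Erg: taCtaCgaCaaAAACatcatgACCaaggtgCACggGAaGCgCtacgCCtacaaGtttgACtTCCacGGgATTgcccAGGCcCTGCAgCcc
Elk3: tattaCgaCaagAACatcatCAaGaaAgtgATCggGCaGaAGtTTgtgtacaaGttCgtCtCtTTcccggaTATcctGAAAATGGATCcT

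*Etv5* matched *Etv1* at 79 of the 90 bases and *Etv4* at 78, with longest identical runs of 23 and 11 bases. Outside the PEA3 group the match ranged from 40 bases in *Etv6* to 55 in *Ets1*. The stretch was chosen for its match within the PEA3 group, so these letters are no test of the split. On the sense strand, the only one compared, no member shared a 60-base word with another member anywhere in its transcripts. *Etv1* shared 8.41% of its words with 51 genes outside the family, and *Etv5* shared 22.0% with *Gm4798*, a gene whose expected counts lay between 0 and 1.2 in the 8 libraries. The expected counts of *Etv1* were not whole in any library. The other 8 members shared no such word on the sense strand. Matches to opposite-strand genes were not part of this comparison, and the exonic overlaps of *Elk3*, *Elf2* and *Etv6* with such genes are given below.

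Among the 3 PEA3 genes, *Etv1* was lower in the labelled-mutant libraries, and *Etv4* and *Etv5* did not pass the test. *Etv1* (ENSMUSG00000004151; chromosome 12, 38779380 to 38870484, plus strand) was at 40.4, 40.0, 41.0 and 35.2 CPM in WT replicates 1 to 4. In labelled-mutant replicates 1 to 4 it was at 29.6, 32.0, 30.1 and 33.9 CPM. The groups did not overlap, and the replicates that lay closest to the other group were replicate 4 of each, the same libraries in which the Y-linked sum was highest. The means were 39.1 ± 2.67 and 31.4 ± 1.97 CPM (SD, n = 4 each). On the log2 scale *Etv1* changed by -0.32 (SE 0.0574, 95% interval -0.44 to -0.19; edgeR FDR 0.0373), a level that fell by 19.8%. The call was lost with the Y-linked covariate (-0.33, FDR 0.144) and on leaving out any of replicates 1, 2 and 3 of either group (FDR 0.0723 to 0.139), and it held without replicate 4 of either group.

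*Etv5* (chromosome 16, 22381309 to 22439719, minus strand) was at 20.6, 22.1, 21.1 and 24.1 CPM in the WT libraries and at 19.5, 19.0, 18.0 and 23.0 CPM in the labelled-mutant libraries. Replicate 4 was the highest of both groups, and labelled-mutant replicate 4 alone lay within the WT range. The log2 fold change was -0.15 (95% confidence interval -0.31 to 0.01; edgeR FDR 0.535), and -0.036 (edgeR FDR 0.937) with the Y-linked covariate. *Etv4* (chromosome 11, 101769742 to 101785371, minus strand), the member with the lowest counts at 113 to 153 per library, was at 6.48, 6.76, 5.69 and 5.10 CPM in the WT libraries. Its labelled-mutant libraries were at 6.62, 4.74, 5.60 and 7.42 CPM and held both the lowest and the highest value. The log2 fold change was 0.01 (edgeR FDR 0.992) with an interval from -0.30 to 0.32, wide enough to include a change nearly as large as that of *Etv1*.

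**Figure D1:**
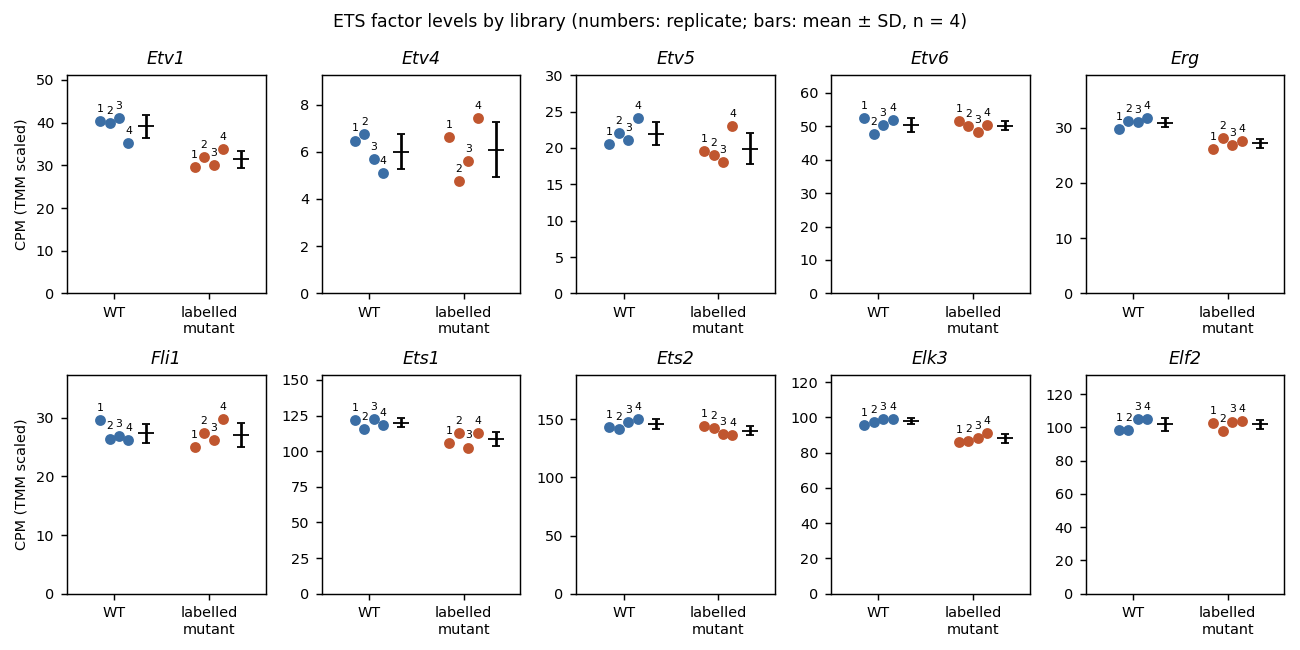
Level of each of the 10 ETS genes (vertical axes, CPM scaled with TMM factors) in the 4 WT libraries and the 4 labelled-mutant libraries. Points are libraries with their replicate number and bars are the mean ± SD (n = 4). *Etv1*, *Erg*, *Ets1* and *Elk3* have groups that do not overlap, and in 6 of the 10 genes replicate 4 is the highest labelled-mutant library.

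Of the 7 other members, *Elk3* was lower in the labelled-mutant libraries, *Erg* and *Ets1* were lower in every labelled-mutant library without passing the test, and the groups of the other four overlapped. *Elk3* (ENSMUSG00000008398; chromosome 10, 93247414 to 93311135, minus strand) was at 95.6, 97.4, 99.3 and 99.3 CPM in the WT libraries and at 85.8, 86.7, 88.5 and 91.4 CPM in the labelled-mutant libraries. The gap between the groups, from 91.4 to 95.6 CPM, was wider than the WT range. Its log2 fold change was -0.15 (SE 0.0302, with a 95% interval of -0.22 to -0.09; edgeR FDR 0.0460), a level that fell by 10.1%. The call was lost under total count scaling (FDR 0.0651), limma voom (0.0583) and the Y-linked covariate (-0.13, FDR 0.268), and on leaving out any library other than labelled-mutant replicate 4 (FDR 0.0845 to 0.159). Exons of *Elk3* overlap exons of *Cdk17* on the opposite strand over 316 bases, 6.95% of its exonic bases, and the expected counts of *Elk3* were not whole in any library. *Cdk17* went from 44.4 ± 1.34 to 46.5 ± 2.16 CPM (SD, n = 4 each; edgeR FDR 0.624). The libraries were made with a strand-specific kit, but whether counting used the strand is not given in the sources used here. In every library the fractional parts of the *Elk3* and *Cdk17* counts added to a whole, as in 2066.51 and 995.49 in WT replicate 1. Reads of the overlap were therefore divided between the genes regardless of strand, and may belong to either.

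*Erg* (chromosome 16, 95359169 to 95586593, minus strand) was at 29.8, 31.1, 31.0 and 31.7 CPM in the WT libraries and at 26.1, 28.1, 26.8 and 27.5 CPM in the labelled-mutant libraries. All labelled-mutant values lay below all WT values. The change was -0.19 on the log2 scale (SE 0.0425, with a 95% interval of -0.28 to -0.10; edgeR FDR 0.0769), and of the 18 alternatives the likelihood ratio test alone put it under the threshold (FDR 0.0246). *Ets1* (chromosome 9, 32636221 to 32757820, plus strand) was at 122, 116, 123 and 119 CPM in the WT libraries and at 106, 113, 103 and 113 CPM in the labelled-mutant libraries. Its groups also did not overlap, with 113 CPM as the highest labelled-mutant value and 116 CPM as the lowest WT value. The log2 fold change was -0.14 (SE 0.0376; edgeR FDR 0.136), and it passed in 1 of the 18 alternatives, the fit with no filter on low counts (FDR 0.0422).

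In the remaining 4 genes the groups overlapped. *Fli1* (chromosome 9, 32422204 to 32542861, minus strand), the closest relative of *Erg*, was at 29.6, 26.4, 26.9 and 26.2 CPM in the WT libraries and at 25.0, 27.3, 26.2 and 29.8 CPM in the labelled-mutant libraries, with a log2 fold change of -0.01 (95% confidence interval -0.14 to 0.12; edgeR FDR 0.970). *Ets2* (chromosome 16, 95702075 to 95721051, plus strand) was at 144, 141, 148 and 151 CPM and at 144, 143, 137 and 137 CPM, with -0.06 (-0.13 to 0.02; FDR 0.600). *Etv6* (chromosome 6, 134035700 to 134270158, plus strand) was at 52.4, 47.6, 50.3 and 51.7 CPM and at 51.7, 50.0, 48.3 and 50.3 CPM, with -0.01 (-0.10 to 0.07; FDR 0.957). None of these 3 intervals reached the -0.19 of *Erg*, but the interval of *Erg* itself (-0.28 to -0.10) overlapped those of *Fli1* and *Ets2*. Differences between genes were not tested. *Elf2* (chromosome 3, 51252720 to 51340663, minus strand) was at 98.7, 98.6, 105 and 105 CPM and at 103, 98.0, 104 and 104 CPM, with 0.00099 (-0.07 to 0.08; FDR 0.996). *Elf2* and *Etv6* share 371 and 135 exonic bases with opposite-strand genes, *4930577N17Rik* and *Gm17089*, which stayed at or below 2.22 CPM. The signs of *Etv4*, *Etv6*, *Fli1* and *Elf2* turned under some alternatives, and no direction is given for them.

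Over the 10 genes, 2 passed the test, both of them lower, where the background was 0.526% of the 15388 tested genes (81 genes), 0.214% lower and 0.312% higher. Groups did not overlap in 4 of the 10 genes, all lower, against 2.98% of tested genes that were lower without overlap and 3.07% that were higher. The median log2 fold change was -0.10 over the 10 genes, against -0.0012 over all tested genes, 50.6% of which were below 0. At an unadjusted p under 0.05 there were 4 of the 10 genes and 1622 of all tested genes. In a bulk sample, fewer cells of a type and less RNA per cell cannot be told apart. How many of the 10 passed depended on the fit, from 0 with the Y-linked covariate to 3 with the likelihood ratio test. Over all tested genes those fits called 16 and 242.

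**Figure D2:**
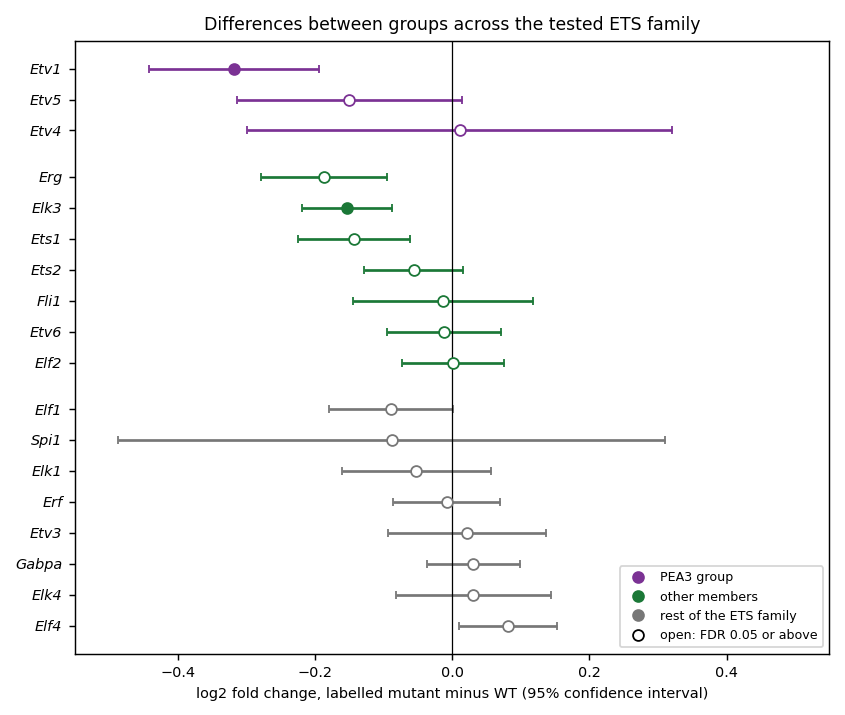
Log2 fold change of the 18 tested ETS family genes, labelled mutant minus WT (horizontal axis), with 95% confidence intervals. Purple marks the PEA3 group, green the other members, grey the rest of the family, and filled points an FDR below 0.05; *Etv1* at -0.32 and *Elk3* at -0.15 are filled, and the intervals of *Erg* and *Ets1* also lie below 0.

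Set against the other members, the PEA3 group gave no difference that kept its sign under every fit. Its median log2 fold change was -0.15 over 3 genes, that of *Etv5*, and the median of the other 7 was -0.06, that of *Ets2*. The difference of the medians was -0.09, between -0.16 and -0.06 when 1 library was left out and 0.01 with the Y-linked covariate. These values carry no test, since genes are not replicates. Summed per length of merged exons, the PEA3 genes reached 10.2 ± 0.228 CPM per kb in the WT libraries and 9.17 ± 0.954 CPM per kb in the labelled-mutant libraries (SD, n = 4 each). Labelled-mutant replicate 4, at 10.5 CPM per kb, lay within the WT range of 10.1 to 10.6, and the other three lay below it. The other 7 genes summed to 96.7 ± 1.75 and 91.1 ± 1.45 CPM per kb, without overlap. The PEA3 share of the sum over all 10 genes was 9.57% ± 0.344 and 9.14% ± 0.754 (SD, n = 4 each), with overlapping ranges. Within the PEA3 sum, *Etv1* made up 28.8% ± 2.04 and 25.9% ± 1.91, *Etv5* 52.3% ± 3.71 and 52.8% ± 0.936, and *Etv4* 18.9% ± 2.13 and 21.3% ± 2.47.

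Levels between genes were compared per kb of merged exons. In WT ventricles *Ets2* was the highest at 25.2 CPM per kb, followed by *Elk3* at 21.5, *Ets1* at 14.1 and *Elf2* at 10.7, and each of these lay above the next in all 4 libraries. *Erg* at 8.91, *Etv6* at 8.44 and *Fli1* at 7.83 CPM per kb followed, and neighbours among these 3 had overlapping ranges. The PEA3 genes were the lowest, *Etv5* at 5.35, *Etv1* at 2.94 and *Etv4* at 1.93 CPM per kb, again separated in all 4 libraries. In the labelled-mutant libraries the order was the same except that *Etv6* at 8.37 CPM per kb stood above *Erg* at 7.83. The order of close neighbours depended on the length used. With the longest coding transcript in place of merged exons, *Etv1* (6576 against 13296 bases) stood at 5.95 CPM per kb, above *Etv5* at 5.52, and *Ets1* at 23.6 stood above *Elk3* at 23.2, whereas *Ets2* remained the highest and *Etv4* the lowest.

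**Figure D3:**
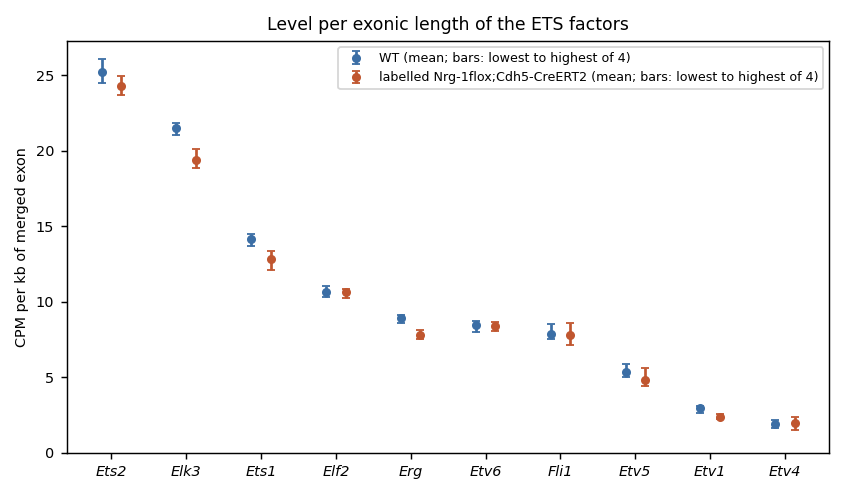
Mean level per kb of merged exon (vertical axis, CPM per kb) of the 10 genes in WT (blue) and labelled-mutant (red) libraries, in the order of the WT means, with bars from the lowest to the highest of 4 libraries. *Ets2* stands highest at 25.2 and the 3 PEA3 genes stand lowest, from 5.35 down to 1.93 CPM per kb in WT.

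Among these genes are a pair of neighbours on chromosome 16 and a pair on chromosome 9. *Erg* ends 115481 bases before the start of *Ets2*, and *Fli1* ends 93359 bases before the start of *Ets1*, in the coordinates of the assembly. In each pair the groups of 1 gene did not overlap and those of its neighbour did. On chromosome 16, *Erg* had a log2 fold change of -0.19 and *Ets2* of -0.06, and on chromosome 9, *Ets1* had -0.14 and *Fli1* -0.01. The difference within a pair was not tested.

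*Erg*, *Fli1*, *Ets1* and *Elk3* are known from endothelial cells, so their counts were also set against those of *Cdh5*, the gene of the adherens junction protein VE-cadherin. *Cdh5* was at 285 ± 4.39 and 287 ± 8.51 CPM (SD, n = 4 each), a log2 fold change of 0.01 (edgeR FDR 0.967). Counts of *Erg* were 10.8% ± 0.401 of those of *Cdh5* in the WT libraries and 9.46% ± 0.470 in the labelled-mutant libraries, and those of *Elk3* were 34.3% ± 1.12 and 30.7% ± 0.850, without overlap in either. *Ets1* was at 42.0% ± 1.38 and 37.8% ± 1.95, with overlap, and *Fli1* at 9.57% ± 0.463 and 9.44% ± 0.643. *Cdh5* was chosen after its values were seen, and since it differed so little between the groups, these ratios restate the CPM values and do not measure the share of endothelial RNA.

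Of 21 endothelial genes, all tested, 16 had a log2 fold change below 0 and the median was -0.05. *Nos3*, the endothelial nitric oxide synthase, was the gene that passed, at 67.4 ± 1.43 and 60.2 ± 0.519 CPM (SD, n = 4 each; log2 fold change -0.16, edgeR FDR 0.0383), and it did not pass with limma voom or the Y-linked covariate, nor on leaving out any library other than labelled-mutant replicate 4. *Dll4*, which encodes a Notch ligand, had the largest difference at -0.29 (FDR 0.0869), and *Emcn*, which encodes the endothelial sialomucin endomucin, lay on the other side at 0.18 (FDR 0.358). Groups did not overlap in 6 of the 21 genes, all lower, against 2.98% of all tested genes. An unadjusted p under 0.05 was seen in 9 of the 21, against 1622 of all 15388 tested genes. The likelihood ratio test and DESeq2 each called 4, where they called 242 and 192 over all tested genes. With limma voom 0 were called, against 57 over all tested genes. The summed level of the list ran from 1806 to 1859 CPM in the WT libraries and from 1692 to 1804 CPM in the labelled-mutant libraries, so it moved in the same direction as *Erg*, *Ets1* and *Elk3*. Its part in their values was not tested.

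In the rest of the ETS family, 8 of 16 further genes were tested and none passed (edgeR). At an unadjusted p under 0.05 there was 1 of the 8, against 1622 of all 15388 tested genes. The likelihood ratio test, DESeq2 and limma voom also called 0. *Elf1*, a regulator of blood and endothelial genes, was at -0.09 (FDR 0.477), and *Spi1*, the PU.1 factor of myeloid cells, was at -0.09 (FDR 0.924). The ternary complex factors *Elk1* and *Elk4* were at -0.05 and 0.03, the repressors *Erf* and *Etv3* at -0.01 and 0.02, the GA-binding protein subunit *Gabpa* at 0.03, and *Elf4* at 0.08 (FDR 0.404). Their median was 0.0065. The 8 genes that were not tested stayed at or below 0.530 CPM in every library, and *Etv2*, the factor that starts the endothelial lineage in the early embryo, was at 0 in all 8.

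Upstream of PEA3 transcription, 22 genes from ErbB and FGF receptors through RAS, RAF, MEK and ERK to CIC, ataxins and COP1-DET1 were all tested, and 0 passed (edgeR, and likewise the likelihood ratio test, DESeq2 and limma voom). An unadjusted p under 0.05 was seen in 3 of the 22, against 1622 of all 15388 tested genes. Of the 22 genes, 9 lay below 0 and 13 above, with a median of 0.02. The largest differences were those of *Atxn1*, which encodes a partner of CIC, at 0.15 (FDR 0.267) and of the receptor *Erbb3* at 0.12 (FDR 0.670). *Erbb2* and *Erbb4*, the neuregulin receptors of cardiomyocytes, were at 0.02 and -0.02, and *Cic* was at 0.02. These RNA levels carry no measure of ERK activity.

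Of 15 genes whose transcription is known to follow ERK, as that of the PEA3 genes does, 0 passed in edgeR and limma voom, 5 had an unadjusted p under 0.05 (1622 of the 15388 genes tested), and *Spred2* passed in DESeq2 and the likelihood ratio test. *Phlda1*, a pleckstrin homology protein gene, had a log2 fold change of -0.25 (17.5 ± 0.695 and 14.7 ± 1.20 CPM; SD, n = 4 each; edgeR FDR 0.148), and *Spred2*, an inhibitor of RAF activation, had -0.24 (29.9 ± 1.12 and 25.3 ± 1.61 CPM; SD, n = 4 each; edgeR FDR 0.0742). Groups did not overlap in 4 of the 15 genes, *Phlda1*, *Spred2*, *Spry2* and *Spry4*, all lower, against 2.98% of all tested genes. The median of the list was -0.0084, with 8 genes below 0.

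*Etv1* belongs to the trabecular and conduction lineage, and 12 of 13 genes of that lineage were tested beside it. *Nkx2-5*, a core cardiac transcription factor, was the gene that passed, and it was higher, at 96.9 ± 3.66 and 112 ± 2.16 CPM (SD, n = 4 each; log2 fold change 0.21, edgeR FDR 0.0194). *Slit2*, a secreted guidance protein gene, was at -0.57 (FDR 0.0720) and *Bmp10*, a trabecular growth factor gene, at -0.55 (FDR 0.0606). The pacemaker channel gene *Hcn4* was at -0.29 (FDR 0.0941) and the gap junction gene *Gja5* at -0.19 (FDR 0.403). Of the 12 genes, 8 lay below 0 and the median was -0.17. An unadjusted p under 0.05 was seen in 8, *Nkx2-5* among them, against 1622 of all 15388 tested genes. Without overlap of the groups, 0 of the 12 were lower and 1, *Nkx2-5*, was higher, against 2.98% and 3.07% of all tested genes. The count that passed ranged from 0 to 5 over the alternatives. It was 0, so that *Nkx2-5* was no longer called, with the Y-linked covariate and on leaving out WT replicate 2, WT replicate 3 or labelled-mutant replicate 3.

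**Figure D4:**
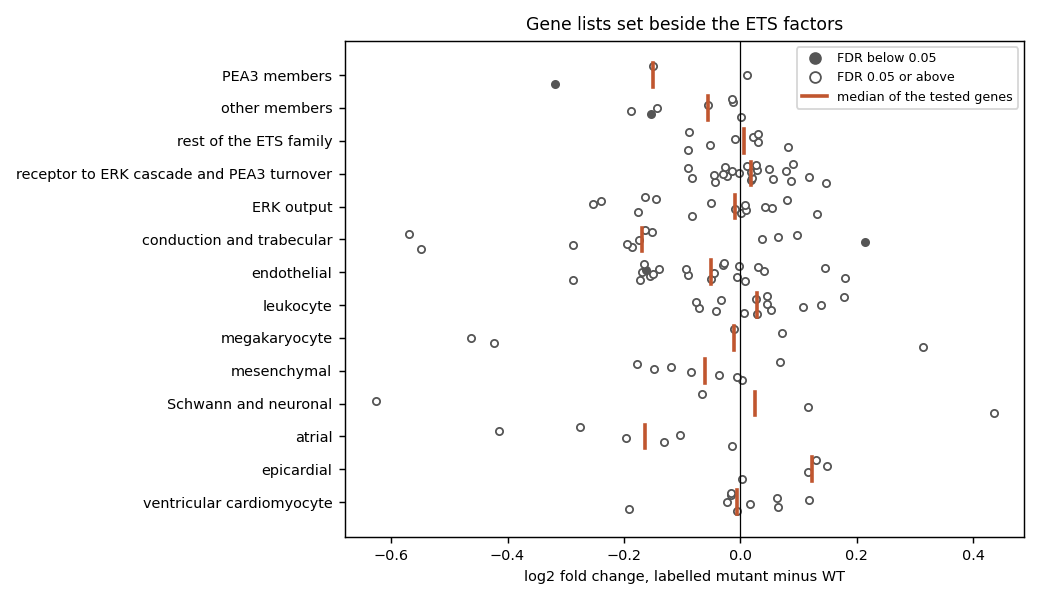
Log2 fold change, labelled mutant minus WT (horizontal axis), of every tested gene in the 10 ETS genes and in 12 further lists, 1 point per gene, with filled points for an FDR below 0.05 and a red bar at the median of each list. *Etv1*, *Elk3*, *Nkx2-5* and *Nos3* are the filled points, and the medians of the PEA3 and conduction lists lie at -0.15 and -0.17.

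Markers of other cell types that ventricular samples can hold were read beside these values. In edgeR 0 genes passed among 13 leukocyte, 5 megakaryocyte, 8 mesenchymal, 4 Schwann and neuronal, 6 atrial, 4 epicardial and 9 ventricular cardiomyocyte genes. In the same order, 0, 0, 1, 1, 1, 2 and 1 had an unadjusted p under 0.05, against 1622 of all 15388 tested genes. DESeq2 called 1 mesenchymal and 1 cardiomyocyte gene, against 192 over all tested genes. The summed leukocyte level ran from 133 to 184 CPM in the WT libraries and from 140 to 208 CPM in the labelled-mutant libraries, with *Ptprc* (CD45) at 4.04 and 4.64 CPM and a log2 fold change of 0.18, and *Csf1r* at 0.14. Among genes with a mean log2 CPM of at least 1, the largest differences of a list were *Postn* (-0.18) and *Lum* (-0.15) among mesenchymal genes and *Itga2b* (0.07) and *Pf4* (-0.01) among megakaryocyte genes. The other tested megakaryocyte genes lay below that level and farther from 0, *Gp9* at -0.46 (FDR 0.718), *Gp1bb* at -0.42 (FDR 0.728) and *Gp1ba* at 0.31 (FDR 0.651). All 6 atrial genes lay below 0, with a median of -0.16 and *Sln* at -0.41 (FDR 0.649) and *Stard10* at -0.28 (FDR 0.429), and atrial cardiomyocytes are known to express *Etv1*. The atrial sums overlapped, at 1572 to 1794 and 1570 to 1727 CPM. *Myl4* made up most of them, at 1323 and 1311 CPM (log2 fold change -0.01), so the sums say little about the other atrial genes. The ventricular myosin light chain gene *Myl2*, a marker of the labelled tissue, was at 4988 ± 56.3 and 5044 ± 288 CPM (SD, n = 4 each), and *Myh6* (-0.19, FDR 0.134) and *Ryr2* (0.12) differed the most among cardiomyocyte genes. The epicardial genes *Upk3b* (0.15, FDR 0.197, groups not overlapping) and *Wt1* (0.13) were among 4 that all lay above 0, with sums of 114 to 125 and 122 to 135 CPM. The part of atrial or epicardial tissue in the *Etv1* value was not tested.

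The genes whose level followed that of *Etv1* most closely over the 8 libraries, among 10053 genes with a mean log2 CPM of at least 3, were *Sorbs3* (Pearson r of log2 CPM 0.956), *Ptgs1* (0.950), *Bbs1* (0.945), *Nos3* (0.944) and *Cacna1d* (0.943). Within the groups, after each group was centred on its mean, r was 0.848, 0.738, 0.765, 0.751 and 0.714. These genes were picked by r over the same libraries, so the centred values are no separate support. *Ptgs1* fell by 0.32 on the log2 scale (edgeR FDR 0.0454) and *Cacna1d*, a calcium channel gene, was at -0.28 (FDR 0.0744). Among the other ETS members, r to *Etv1* was 0.895 for *Ets1* (rank 34 of the 10053), 0.865 for *Elk3*, 0.841 for *Erg* and 0.507 for *Etv5*, and it was 0.408 for *Fli1*, 0.355 for *Ets2*, 0.177 for *Etv4*, 0.018 for *Etv6* and -0.166 for *Elf2*. After centring, *Fli1* was the highest at 0.733, followed by *Ets1* at 0.619, *Etv4* at 0.427 and *Elk3* at 0.234. *Erg* was then at 0.088, *Etv5* at 0.043, *Etv6* at -0.201, *Elf2* at -0.307 and *Ets2* at -0.575. These correlations are descriptions over 8 libraries that also share their depth and scaling.

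**Figure D5:**
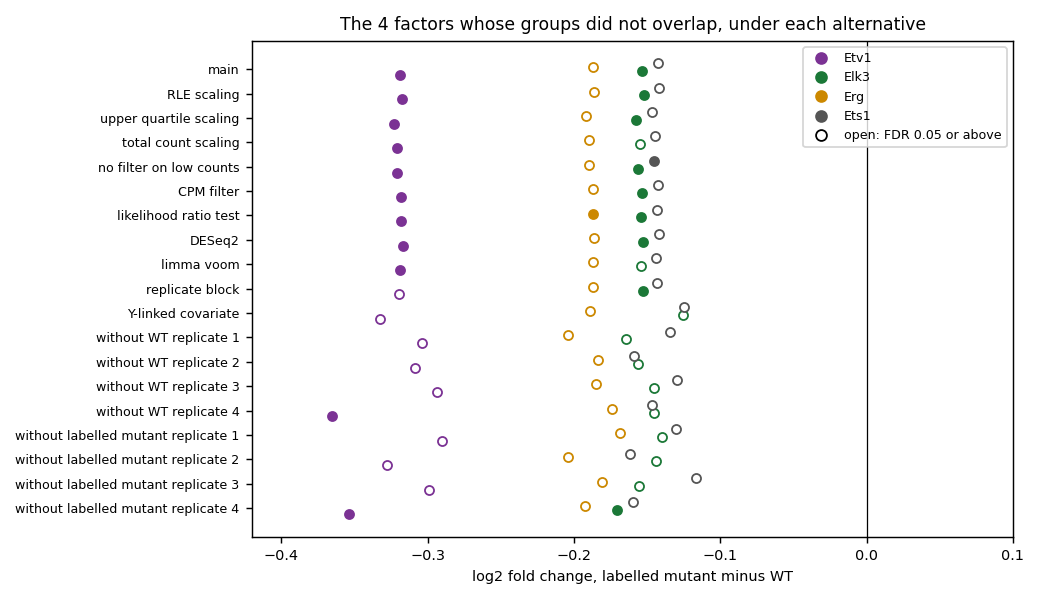
Log2 fold change, labelled mutant minus WT (horizontal axis), of the 4 genes whose groups did not overlap, under the reported fit (main) and each alternative fit, with filled points for an FDR below 0.05. *Etv1* ranges from -0.37 to -0.29 and *Elk3* from -0.17 to -0.13 with some points filled, and *Erg* and *Ets1* stay below 0 with 1 filled point each.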

How the data were processed

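Polyadenylated RNA of 8 ventricle samples was read as 60-base single reads from strand-specific libraries, per the labels. The table the authors deposited holds expected counts for each Ensembl gene, made with RSEM 1.3.1 after cutadapt per the submitters' processing notes (GRCm38, and Ensembl release 91 by the table's name). In these, a read that fits several genes is divided between them, and 18.1% of the values were not whole. The aligner and the use of strand in counting are not given in the sources used here. The complementary fractions in the counts of *Elk3* and *Cdk17* show that reads were divided between genes on opposite strands. Totals were 16761763 to 24144272 expected counts per library.

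Counts were rounded, filtered by group with filterByExpr and scaled with TMM factors, and the 4 labelled-mutant libraries were compared with the 4 WT libraries in edgeR 4.0.16 (glmQLFit, glmQLFTest, two-sided; R 4.3.3), with Benjamini-Hochberg adjustment over 15388 genes and an FDR threshold of 0.05. SE and 95% intervals came from the quasi-likelihood F statistic. Nothing in the labels ties a replicate number to a litter, so p-values measure the spread between these samples. No 2 libraries agreed within sampling noise (lowest chi-square per degree of freedom 2.98). Symbols, lengths and overlaps came from GENCODE M21, on the same assembly, which matched 53274 of 53465 identifiers, and levels per kb used merged exons. For *Erg* and *Ets2*, 5 of 9 and 1 of 5 table transcripts were found in M21, so fewer words were compared there. Fits were tested on simulated counts.

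The members and gene lists were chosen with earlier results of these data known. Named were the 10 members, the tested rest of the family, in each further list the genes that passed and the 2 farthest from 0 in log2 fold change whose mean log2 CPM reached 1, and the 5 genes most like *Etv1* by Pearson r. A gene of the further lists is not reported here. *Hcn4*, *Gja5*, *Spry2*, *Spry4*, *Erbb2*, *Erbb4*, *Cic*, *Cdh5*, *Myl4*, *Gp9*, *Gp1bb* and *Gp1ba* were named in addition, after their values were seen. Alternatives were RLE, upper quartile and total count scaling, no filter, a filter of 1 CPM in 4 or more libraries, DESeq2 1.42.0, limma 3.58.1 voom, edgeR's likelihood ratio test, the replicate number as a block, summed log2 CPM of 4 Y-linked genes as a covariate, leaving out each library, and an FDR of 0.01 or 0.1. Levels with the longest coding transcript were added after seeing the data.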

Additional observations from a re-analysis of the deposited data

Results flagged for a closer look

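*Elf2* in labelled-mutant replicate 2, at 98.0 CPM, stood apart from the other 3 libraries of its group, which were at 103, 104 and 104 CPM. Its gap to the nearest of them was 0.836 of the range of the group, above Dixon's 95% critical value for 4 samples. Of the 20 groups of 4 values tested (10 genes in each group), 1 was flagged, and chance flags about 1 in 20. The value lay close to WT replicates 1 and 2, at 98.7 and 98.6 CPM. *Etv1* in WT replicate 4 came near the limit, with a gap of 0.819 of the range.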

How the results depend on the processing

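The number of ETS members called was 2 with TMM scaling, 1 with total count scaling (*Etv1*), limma voom (*Etv1*) and the replicate block (*Elk3*), 0 with the Y-linked covariate and at an FDR of 0.01, and 0 to 2 when 1 library was left out. It was 3 with no filter (adding *Ets1*), with the likelihood ratio test and at an FDR of 0.1 (each adding *Erg*). The ERK list went from 0 to 1 gene with no filter, the likelihood ratio test, DESeq2 and an FDR of 0.1. The conduction list went from 1 to 5 with no filter, 4 with the likelihood ratio test and at an FDR of 0.1, 3 with the block (*Nkx2-5*, *Bmp10* and *Slit2*), 2 with DESeq2, 0 with the covariate and at an FDR of 0.01, and 0 to 4 without 1 library. The endothelial list went from 1 to 5 with no filter, 4 with the likelihood ratio test, DESeq2 and an FDR of 0.1, 0 with limma voom, the block, the covariate and an FDR of 0.01, and 0 to 3 without 1 library. The rest of the family and the upstream genes stayed at 0 in every alternative. The covariate leaves 1 residual degree of freedom fewer, and the other causes were not tested. Over all genes, the count called went from 81 to between 11 (without labelled-mutant replicate 3) and 338 (no filter). It was 242 with the likelihood ratio test, 192 with DESeq2, 57 with limma voom and 16 with the covariate.

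*Etv1*, *Etv5*, *Erg*, *Ets1*, *Ets2* and *Elk3* stayed below 0 in all 18 alternatives, although *Etv5* came to -0.036 with the covariate. Log2 fold changes turned sign for *Etv4* with limma voom (-0.018) and without 1 library (-0.09 to 0.12), for *Etv6* with the covariate (0.027) and without 1 library (-0.039 to 0.0056), for *Fli1* with the covariate (0.027) and without 1 library (-0.059 to 0.028), and for *Elf2* with upper quartile scaling (-0.0032), total count scaling (-0.00044), no filter (-0.0016) and without 1 library (-0.015 to 0.022).

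Replicate numbers are shared by the groups. Deviations of same-numbered libraries correlated at 0.0998, 0.0474, 0.0447 and 0.121, and other pairs at -0.0877 to 0.0195, so every library correlated best with its own number, as a hint from the data and not from the design. Not every pair was over 0.1, and the numbers were not taken as pairs. Under the block *Etv1* had an FDR of 0.0577 and *Elk3* of 0.0488. The block moved the calls over all genes from 81 to 93 and the difference between PEA3 and other medians from -0.094 to -0.092, and 0 genes passed in the ERK list, the upstream list and the rest of the family. Ranks per length moved with the longest coding transcript: *Etv1* from 9 to 8, *Etv5* from 8 to 9, *Ets1* from 3 to 2 and *Elk3* from 2 to 3.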
